A study of Mus musculus with 6 samples.

Results

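In dorsal root ganglia of dt27J mice the gliomedin gene Gldn rose and the paranodal gene Cntnap1 fell. Both calls depended on the processing, and of 14 alternative settings 6 kept that of Gldn and 5 that of Cntnap1. The genes described are 7 adhesion genes of the node, paranode and juxtaparanode, chosen by name: Gldn, Nfasc, Nrcam, Cntn1, Cntnap1, Cntn2 and Cntnap2. They are 7 of 17178 gene symbols named on the array and are read by 13 of its 41174 non-control probes, each found by the RefSeq transcript the probe was designed to. Dorsal root ganglia hold the cell bodies of sensory neurons with their satellite glia and Schwann cells. Whole ganglia were taken at postnatal day 4 from 3 dt27J animals, which carry a mutant allele of the dystonin gene Dst, and from 3 wild-type (WT) littermates, all on a C57BL/6 background and drawn from 2 litters. The sample labels call this age a stage before the phenotype. Each sample was run on 1 single-colour array. dt27J 1, dt27J 2, WT 1 and WT 2 carry a first label date, and dt27J 3 and WT 3 a second, which coincides with a second slide. The labels do not say whether the dates correspond to the litters.

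The node of Ranvier is the gap between myelin segments where sodium channels regenerate the action potential. In peripheral nerve, Schwann cell microvilli present gliomedin, the product of Gldn, to the neuronal isoform of neurofascin (Nfasc) and to NrCAM (Nrcam) on the axon, and this contact helps to cluster the channels. At the flanking paranode, axonal contactin-1 (Cntn1) and Caspr (Cntnap1) bind the glial isoform of neurofascin, and at the juxtaparanode contactin-2 (Cntn2, also called TAG-1) and Caspr2 (Cntnap2) hold Shaker-type potassium channels. Gldn is the glial member. Nfasc, Nrcam and Cntn2 are also made by glia. Cntn1, Cntnap1 and Cntnap2 are here called axonal after the place of their proteins in peripheral nerve. Which cells made their RNA in these samples was not measured.

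Each value is the log2 processed signal of a probe with the 75th percentile of its own array taken off, so that 0 marks that percentile. They compare arrays within a probe, not probes with each other. Testing required a signal well above background in every array of one genotype or the other. Of 13 probes 12 were tested and 10 were well above background on all 6 arrays. The number of arrays limits the precision. The share of all probes well above background ran from 63.2% to 71.5% over the arrays. The 3 probes of Dst checked the labels, and the brightest stood at -1.63, -1.77 and -0.96 in the dt27J arrays, against 1.16, 1.44 and 1.099 in the WT arrays. It fell to 15.6% of WT (adjusted p = 0.0341, limma), and all 3 Dst probes fell. All 19 markers of sensory neurons in the list used here were well above background on all 6 arrays. Because whole ganglia were used, fewer cells of a type and less RNA per cell cannot be told apart.

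Gldn rose in dt27J ganglia. Its probe, A_51_P242622, stood at -1.47, -1.79 and -2.25 in dt27J 1, 2 and 3, against -3.64, -3.51 and -3.41 in WT 1, 2 and 3. Every dt27J array lay above every WT array, and the WT arrays spanned far less than the gap between the genotypes. The mean was -1.84 ± 0.39 in dt27J and -3.52 ± 0.12 in WT (SD, n = 3 each). The difference was 1.69 on the log2 scale (SE 0.24), a 3.22-fold rise with a 95% interval of 2.16 to 4.80 (adjusted p = 0.0413, limma). Of the 26248 tested probes 141 had a higher change. The rise was 1.95 within the first date and 1.16 within the second, where each genotype has 1 array. The call was lost without the date as a term (adjusted p = 0.0586), with no filter on dim probes (0.0933) and on leaving out dt27J 1, dt27J 2, WT 1 or WT 2 (0.180, 0.0787, 0.246 and 0.157). After normexp background correction the difference was 0.70 (adjusted p = 0.121). That setting adds an offset of 50 to each signal, which by itself draws differences of dim probes towards 0. With the same offset and high local backgrounds replaced, the difference was 0.89 and the call was kept (adjusted p = 0.0338, limma). The part of the offset in these lower values was not tested.

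The RefSeq promoter window of Gldn (GRCm38.p6, chr9:54286236-54286535, plus strand, 250 bases before to 50 after the start) is shown beside that of Cntn1 (chr15:92050915-92051214, plus strand, the outermost of 3 starts), since Gldn is the glial gene and Cntn1 the axonal gene whose arrays lay farthest from overlap when set against it. A window was found for 6 of the 7 genes. Capitals mark matches on either strand to 5 short motifs, which were GCGNGGGNG for EGR factors, ACAANG for SOX factors, TATAAA for the TATA box, CCAAT for the CCAAT box and GGGCGG for the GC box.
Gldn: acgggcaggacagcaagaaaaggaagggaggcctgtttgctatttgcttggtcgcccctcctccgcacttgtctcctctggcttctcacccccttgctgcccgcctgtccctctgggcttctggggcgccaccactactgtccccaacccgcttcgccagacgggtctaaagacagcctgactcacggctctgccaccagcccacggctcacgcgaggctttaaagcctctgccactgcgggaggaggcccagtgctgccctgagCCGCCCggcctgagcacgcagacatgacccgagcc
Cntn1: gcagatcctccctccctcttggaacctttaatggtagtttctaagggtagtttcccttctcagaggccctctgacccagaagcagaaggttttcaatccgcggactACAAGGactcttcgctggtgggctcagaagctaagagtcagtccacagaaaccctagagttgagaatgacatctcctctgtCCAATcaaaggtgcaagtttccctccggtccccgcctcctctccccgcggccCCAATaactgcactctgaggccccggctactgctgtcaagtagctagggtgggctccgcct
The Gldn window is 65.0% G and C and holds 1 GC box, at bases 266 to 271 of the window, a motif found in 35.7% of 32851 promoter windows. The Cntn1 window is 55.3% G and C and holds 1 SOX match at bases 107 to 112 and 2 CCAAT boxes, at bases 188 to 192 and 240 to 244. SOX matches occur in 41.2% and CCAAT boxes in 37.4% of all windows. Neither window holds the EGR or TATA letters, which occur in 12.3% and 13.6% of windows. No 2 of these motifs overlap in either window. A match is a match of letters only, and no binding was measured.

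**Figure D1:**
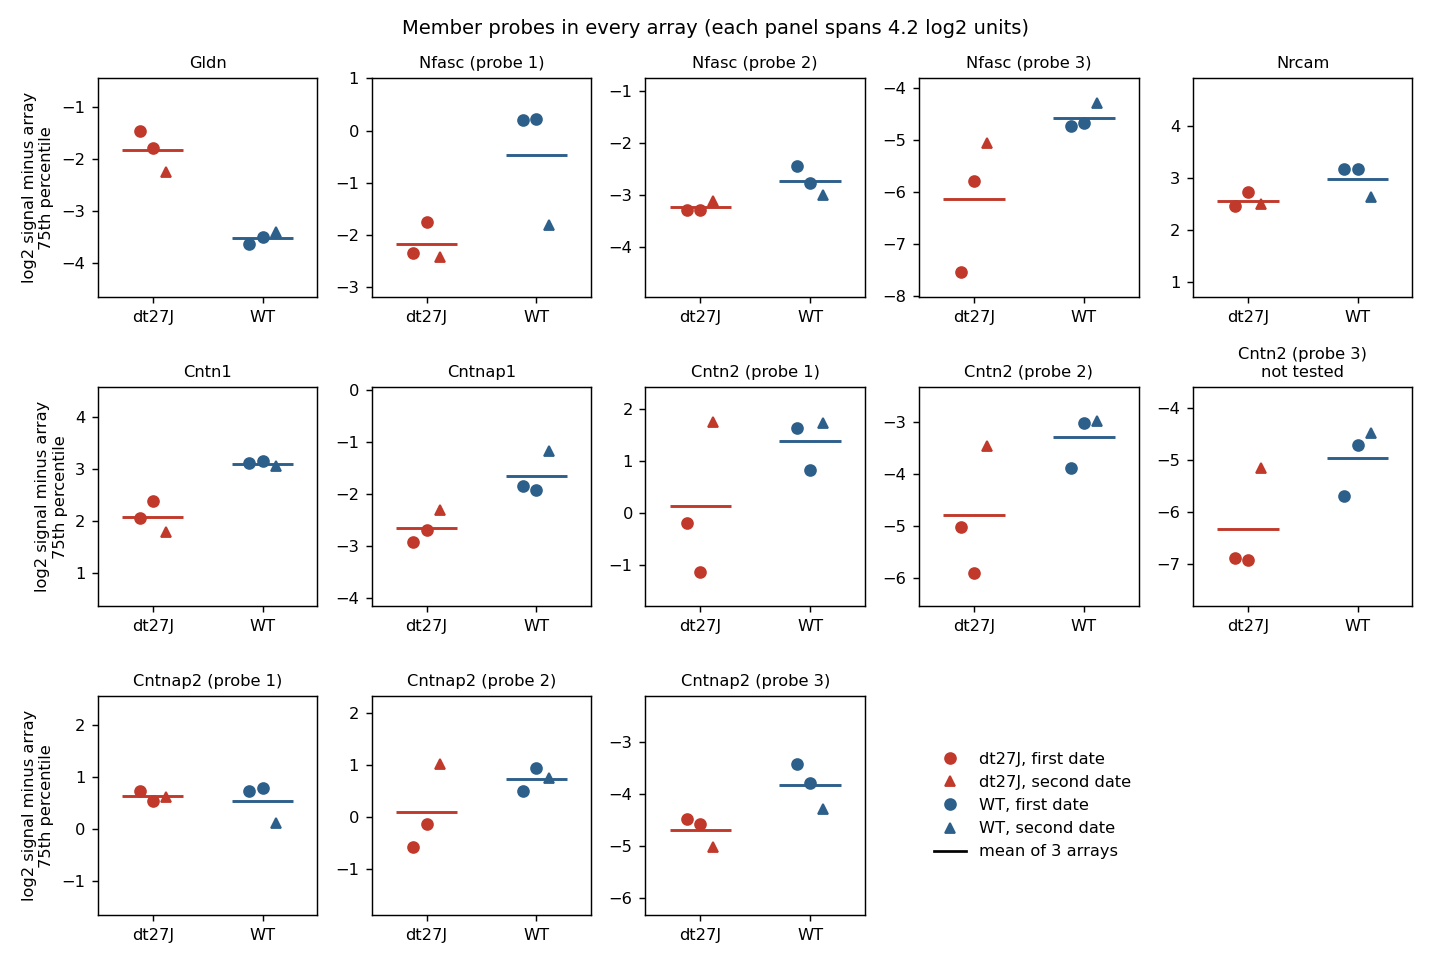
Log2 signal minus the array's 75th percentile (vertical axis) of each of the 13 member probes in dt27J arrays (red, left) and WT arrays (blue, right), with circles for the first date, triangles for the second and lines for the mean of 3 arrays. Gldn lies higher in every dt27J array, Cntn1 and Cntnap1 lie lower in every dt27J array, and for Nfasc probe 1 the WT array of the second date sits at -1.82, beside the dt27J arrays.

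The paranodal pair Cntn1 and Cntnap1, whose proteins form a complex on the axon, lay lower in every dt27J array. Cntnap1, read by probe A_52_P608428, stood at -2.92, -2.69 and -2.31 in dt27J 1, 2 and 3, against -1.85, -1.92 and -1.17 in WT 1, 2 and 3. It fell by 0.996 on the log2 scale (SE 0.19), to 50.1% of WT (adjusted p = 0.0491, limma), with a difference of -0.92 within the first date and -1.14 within the second. The call was lost without the date as a term (adjusted p = 0.106), with no filter on dim probes (0.0933), after normexp (0.225, with a change of -0.40), after normexp with high local backgrounds replaced (0.0850, with a change of -0.62) and on leaving out dt27J 1, dt27J 2, WT 1 or WT 2 (0.105 to 0.246). Cntn1, read by probe A_51_P101763, stood at 2.06, 2.39 and 1.78 in dt27J 1, 2 and 3, against 3.10, 3.15 and 3.04 in WT 1, 2 and 3. Its WT arrays hardly varied, with an SD of 0.05, against 0.30 in dt27J. The difference was -1.02 (SE 0.20), 49.2% of WT, with -0.90 and -1.27 within the first and the second date, and missed the threshold narrowly (adjusted p = 0.0514). It passed with the authors' values (-0.98, adjusted p = 0.0390), after quantile normalization (0.0467) and after normexp (-0.80, 0.0454). It did not pass without the date as a term (0.0708), with no filter (0.0960) or on leaving out dt27J 1, dt27J 2, WT 1 or WT 2 (0.0957 to 0.246).

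Nfasc, which encodes the neuronal neurofascin of the node and the glial neurofascin of the paranode from 1 gene, has 3 probes, all designed to the same transcript. Which isoform each reads is not analysed here. The brightest, A_52_P331824, stood at -2.35, -1.76 and -2.42 in dt27J 1, 2 and 3, against 0.20, 0.23 and -1.82 in WT 1, 2 and 3. WT 3 lay among the dt27J arrays, so that the genotypes overlap. The difference was -1.72 (SE 0.38, adjusted p = 0.0573), with -2.27 within the first date and -0.60 within the second. The next probe, A_51_P309347, ran from -3.28 to -3.11 in dt27J and from -2.98 to -2.43 in WT, with a difference of -0.50 (adjusted p = 0.197). The dimmest, A_52_P331829, was well above background on 1 of 3 dt27J arrays and on all 3 WT arrays, and differed by -1.56 (SE 0.48, adjusted p = 0.0984), or by -0.77 within the second date. That difference was -0.95 without dt27J 1, -0.39 in the authors' values and -0.14 after normexp. On both dimmer probes the highest dt27J array was still below the lowest WT array.

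Nrcam, the other axonal partner of gliomedin at the node, has 1 probe, A_51_P180413. It stood at 2.47, 2.73 and 2.50 in dt27J 1, 2 and 3, against 3.17, 3.17 and 2.64 in WT 1, 2 and 3. The genotypes overlap, since dt27J 2 lay above WT 3. The difference was -0.43 with a 95% interval of -0.92 to 0.06 (adjusted p = 0.228), so that it did not pass the test.

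The juxtaparanodal genes were less even. Cntn2, a contactin of sensory axons and glia, stood on its brightest probe, A_52_P628702, at -0.20, -1.13 and 1.76 in dt27J 1, 2 and 3, against 1.63, 0.82 and 1.72 in WT 1, 2 and 3. Both dt27J arrays of the first date lay below all WT arrays, and dt27J 3 lay above them. The difference was -1.25 (SE 0.48, adjusted p = 0.153), with -1.89 within the first date and 0.03 within the second. A second Cntn2 probe, A_52_P365732, differed by -2.01 within the first date and by -0.48 within the second (overall -1.50, adjusted p = 0.0862), with dt27J 3 among the WT arrays. It was well above background on 2 of 3 dt27J arrays, and the difference was -0.65 in the authors' values and -0.33 after normexp. The third Cntn2 probe, A_52_P651870, was well above background on 1 dt27J and 2 WT arrays and was not tested. It ran from -6.92 to -5.15 in dt27J and from -5.69 to -4.48 in WT.

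Cntnap2, which anchors potassium channels beside the paranode, has 3 probes that do not move as one. The brightest, A_51_P260850, is designed to another transcript record than the rest. It stood at 0.73, 0.53 and 0.62 in dt27J 1, 2 and 3, against 0.74, 0.78 and 0.12 in WT 1, 2 and 3, a difference of 0.08 with a 95% interval of -0.44 to 0.60 (adjusted p = 0.833). The second, A_52_P168559, differed by -0.63 (adjusted p = 0.271), with -1.08 within the first date and 0.27 within the second. The dimmest, A_52_P215750, ran from -5.02 to -4.47 in dt27J and from -4.27 to -3.42 in WT without overlap, with a difference of -0.86 (SE 0.20, adjusted p = 0.0616), which was -0.40 in the authors' values and -0.21 after normexp.

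Over the 12 tested probes, 1 was called higher and 1 lower at an adjusted p of 0.05, where 3.19% of all 26248 tested probes were called. That share was made up of 1.31% called higher and 1.88% called lower. An unadjusted p under 0.05 was reached by 7 probes with a negative change, where 15.7% of all tested probes did so, and by 1 with a positive one, where 12.0% did. The genotypes did not overlap on 5 probes that were lower in dt27J, where 16.0% of all probes did so, and on 1 that was higher, where 12.8% did. The median change was -0.93 over the 12 probes and -0.05 over all tested probes. Several probes share a gene, so these counts are not over independent items. The difference turned sign between the dates on 3 of 12 probes, where 43.2% of all probes did so. The test of that difference, an interaction term in limma, called 0 of 12 (0.831% of all probes), with 3 of 12 at an unadjusted p under 0.05, which 27.5% of all probes reached. These 3 were the brightest Nfasc probe (0.00857), the brightest Cntn2 probe (0.0343) and the second Cntnap2 probe (0.0234).

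**Figure D2:**
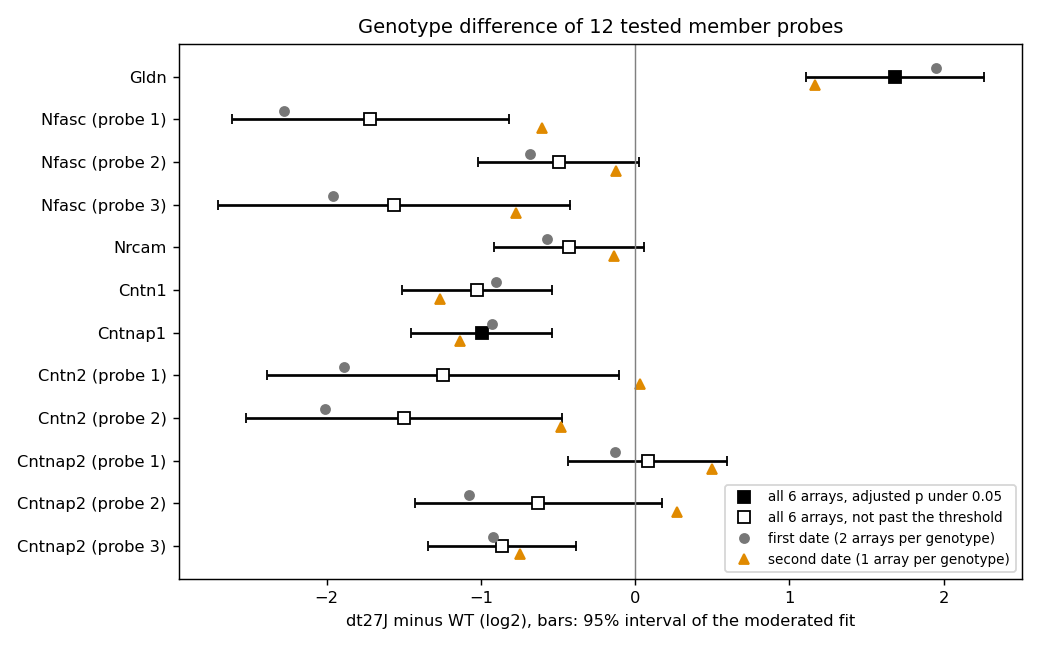
Genotype difference, dt27J minus WT on the log2 scale (horizontal axis), of the 12 tested member probes, with squares and 95% intervals for all 6 arrays, circles for the first date and triangles for the second. Gldn lies right of 0 at 1.69 and the other probes, save Cntnap2 probe 1 at 0.08, lie left of it, with the second date farther from 0 than the first only on Cntn1, Cntnap1 and Cntnap2 probe 1.

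Glial Gldn was set against each other gene within the same array, by subtracting the brightest probe of that gene from Gldn and centring the result on its WT mean. This leaves out any scaling that all probes of an array share. Against Cntn1 the difference stood at 3.09, 2.45 and 2.59 in dt27J 1, 2 and 3, against -0.13, -0.04 and 0.16 in WT 1, 2 and 3. Against Cntnap1 it stood at 3.33, 2.78 and 1.94 in the dt27J arrays, against 0.08, 0.29 and -0.36 in the WT arrays. For these axonal paranodal genes the gap between genotypes exceeded the spread within either. Against Nfasc the mean gap was 3.40, against Nrcam 2.12 and against Cntnap2 1.61. Against Cntn2 the mean gap was 2.93, with dt27J 3 at 0.91 and WT 2 at 0.58. In all 6 pairs every dt27J array lay above every WT array, and the exact two-sided permutation p was 0.1 for each of the 6 comparisons (n = 3 each), the smallest that 3 against 3 arrays can give. All 6 share the Gldn probe. After normexp the genotypes overlapped in 5 of 6 pairs (exact permutation p = 0.2 to 0.6), all but that with Cntnap1, and the gaps shrank to between 0.71 and 1.94. The pair with Cntn2 also overlapped in the authors' values and after normexp with replaced backgrounds (exact permutation p = 0.2 for both). Within the second date the gaps were 2.43 for Cntn1, 2.30 for Cntnap1, 1.77 for Nfasc, 1.30 for Nrcam, 1.13 for Cntn2 and 0.67 for Cntnap2.

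**Figure D3:**
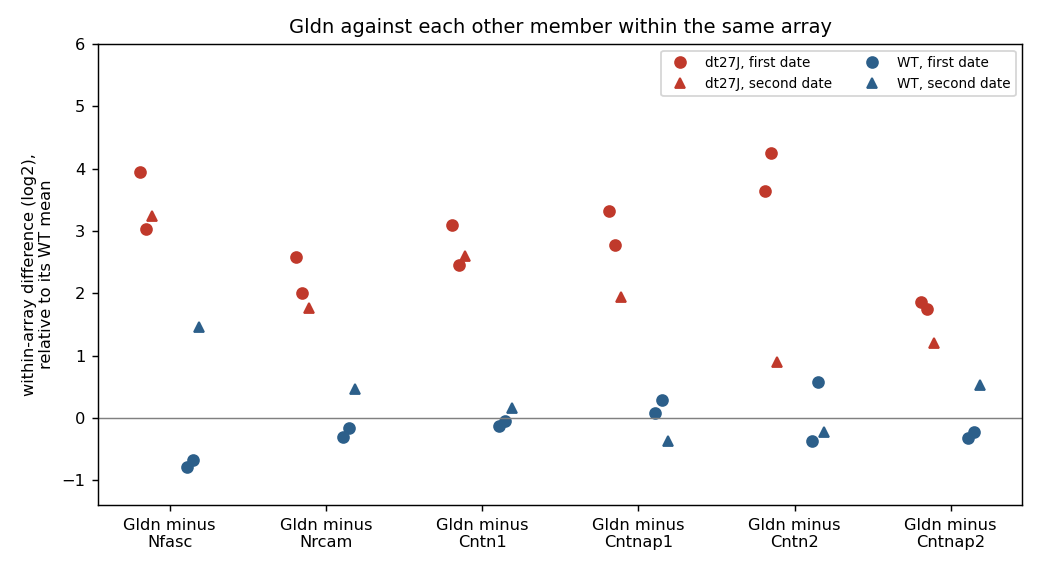
Within-array difference between Gldn and the brightest probe of each other gene, log2 and relative to the WT mean of that difference (vertical axis), in dt27J arrays (red) and WT arrays (blue), with triangles for the second date. All dt27J points lie above all WT points in each pair, with the widest clear space for Cntn1 and the narrowest for Cntn2, where dt27J 3 is at 0.91 and WT 2 at 0.58.

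Markers of other tissues differed between the arrays as well. Of 17 markers of spinal cord glia and interneurons 12 were tested, and their summed signal, in multiples of each array's 75th percentile, ran from 2.90 to 4.16 in dt27J and from 5.51 to 49.5 in WT. WT 1 and WT 2 stood at 49.5 and 44.0, and WT 3 at 5.51. Gfap, Olig1, Slc1a2, Pax2 and Chat of that list were not well above background on every array. All 12 had a negative change, and Gpr17, a receptor of oligodendrocyte precursors, passed the test (-3.70, adjusted p = 0.0454). The brightest Nfasc probe was likewise high in WT 1 and WT 2 only, with WT 3 lower than their mean by 2.04 (-2.04 on the log2 scale), and Nrcam was lower there too (-0.53). So were the Cntnap2 probes A_51_P260850 (-0.64) and A_52_P215750 (-0.68) and the Nfasc probe A_51_P309347 (-0.39). Spinal cord tissue also expresses the 6 genes other than Gldn, and its part in these differences was not tested. Relative to the mean of WT 1 and WT 2, WT 3 stood at -0.08 for Cntn1, 0.71 for Cntnap1 and 0.16 for Gldn. The 14 striated muscle markers summed to between 74.6 and 151 in dt27J and between 21.4 and 95.9 in WT, where WT 3 was the highest, and their part was not tested. All 14 had a positive change, and 4 rose, which were Tcap, Mb, Myh1 and Tnnt3, where 1.31% of all tested probes were called higher.

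**Figure D4:**
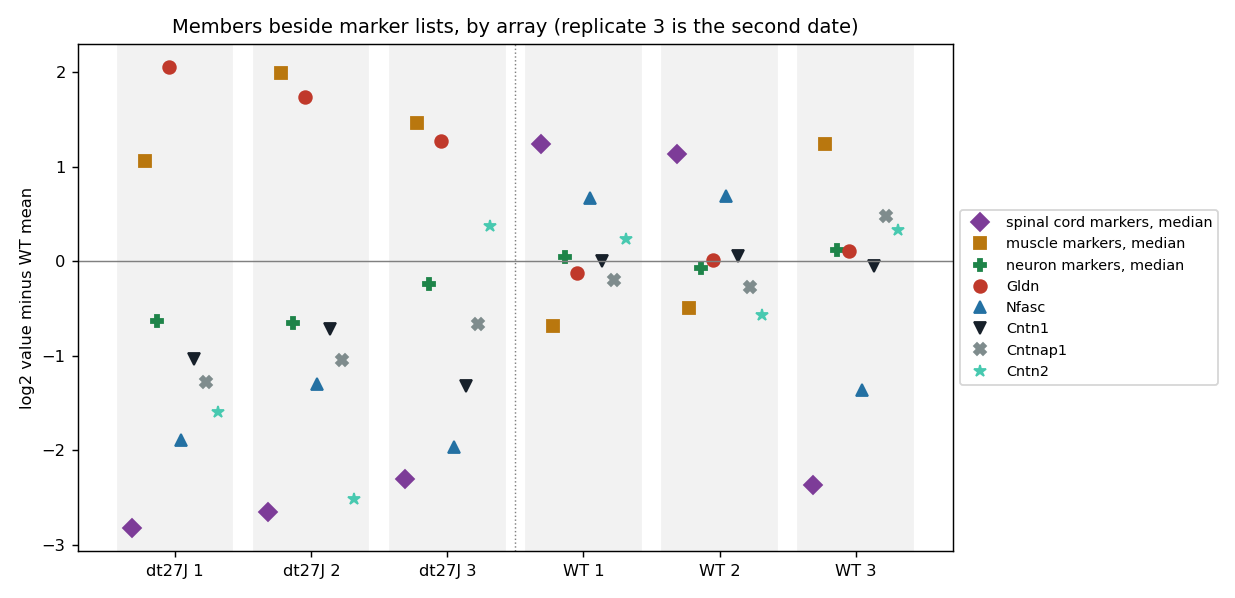
Log2 value minus the WT mean (vertical axis) in each array for Gldn, Nfasc, Cntn1, Cntnap1 and Cntn2 (brightest probe) and for the median of the spinal cord, muscle and neuron markers. The spinal cord median is high in WT 1 and WT 2 (1.23 and 1.14) and low in WT 3 (-2.37), and Nfasc is also high in WT 1 and WT 2 and low in WT 3.

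Neuron markers also lay lower in dt27J. The 19 neuron markers summed to between 743 and 933 in dt27J and between 1017 and 1145 in WT, without overlap, and 17 of them had a negative change, with a median of -0.46. Such sums, here and for the other marker lists, are of unlogged signals and are weighted to the brightest genes. The part of this lower neuronal signal in the values of Cntn1 and Cntnap1 was not tested.

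Other channels and scaffolds of the nodal axon lay lower for the most part. Of 15 listed genes 10 were tested, 9 had a negative change and the median was -0.79. That median was -1.01 within the first date and -0.16 within the second. Kcnk2, a leak potassium channel found at mammalian nodes, rose by 1.28 (SE 0.21, adjusted p = 0.0446), the opposite of the rest of the list. It stood at -3.58, -3.71 and -3.37 in dt27J, against -4.95, -4.66 and -4.91 in WT.

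Of 23 genes of the paranode and juxtaparanode outside the adhesion genes above, all were tested, 2 fell and 0 rose. Of all tested probes 1.88% were called lower and 1.31% higher. The median change of the list was -0.45, with 15 negative. It was -0.50 within the first date and -0.18 within the second. Kcnab1, a cytoplasmic beta subunit of Shaker-type potassium channels, fell by 1.48 (SE 0.26, adjusted p = 0.0473). Cadm3, an axonal adhesion molecule of the internode that binds Cadm4 on the Schwann cell, fell by 1.13 (SE 0.19, adjusted p = 0.0473). Among 11 relatives of the contactins, Caspr proteins and L1, 6 were tested and all 6 had a negative change. Their median was -0.75, with -1.15 within the first date and -0.27 within the second. By limma 0 of these 6 passed and 3 had an unadjusted p under 0.05. Of all tested probes 15.7% reached that p with a negative change. The 3 were L1cam (-1.24, adjusted p = 0.0662), Cntnap4 (-0.99, adjusted p = 0.0781) and Cntn6 (-0.84, adjusted p = 0.0905).

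Genes listed for the glial side of the node gave more positive than negative changes. Which cells of the ganglia made their RNA was not measured. Of 20 genes of Schwann cell microvilli and nodal matrix 18 were tested and 14 had a positive change, with a median of 0.58. The median was 0.71 within the first date and 0.25 within the second. By limma 0 passed, and 13 had an unadjusted p under 0.05, with negative as well as positive changes among them. Of all tested probes 12.0% reached that p with a positive change and 15.7% with a negative one. Those with the smallest p were the laminin chain Lama2 (0.995, adjusted p = 0.0571), the dystroglycan gene Dag1 (1.46, adjusted p = 0.0664) and the sarcoglycan Sgcd (0.71, adjusted p = 0.0710). Muscle also expresses these 3 genes, the median change of the muscle markers was 1.47, and their part in this was not tested. The lists were drawn up with earlier results of these data known.

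Markers of myelinating Schwann cells were evenly divided. Of 16, all tested, 8 had a positive and 8 a negative change, with a median of 0.05, and their sum ran from 359 to 420 in dt27J and from 303 to 426 in WT, with full overlap. Egr2, the transcription factor that drives the myelination programme, rose by 2.00 (SE 0.31, adjusted p = 0.0442). Among 13 tested markers of the Schwann lineage and satellite glia 5 had a positive and 8 a negative change, with a median of -0.01. By limma 2 passed as higher and 0 as lower, where 1.31% and 1.88% of all tested probes did so. The endothelin receptor Ednrb rose by 1.32 (SE 0.21, adjusted p = 0.0442) and the cadherin Cdh19 by 1.85 (SE 0.36, adjusted p = 0.0497). Cdh19 was well above background on 1 of 3 WT arrays. Gldn thus changed more than the median of either glial list, but less than Egr2 of the first list and Cdh19 of the second. No test was made of these differences.

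**Figure D5:**
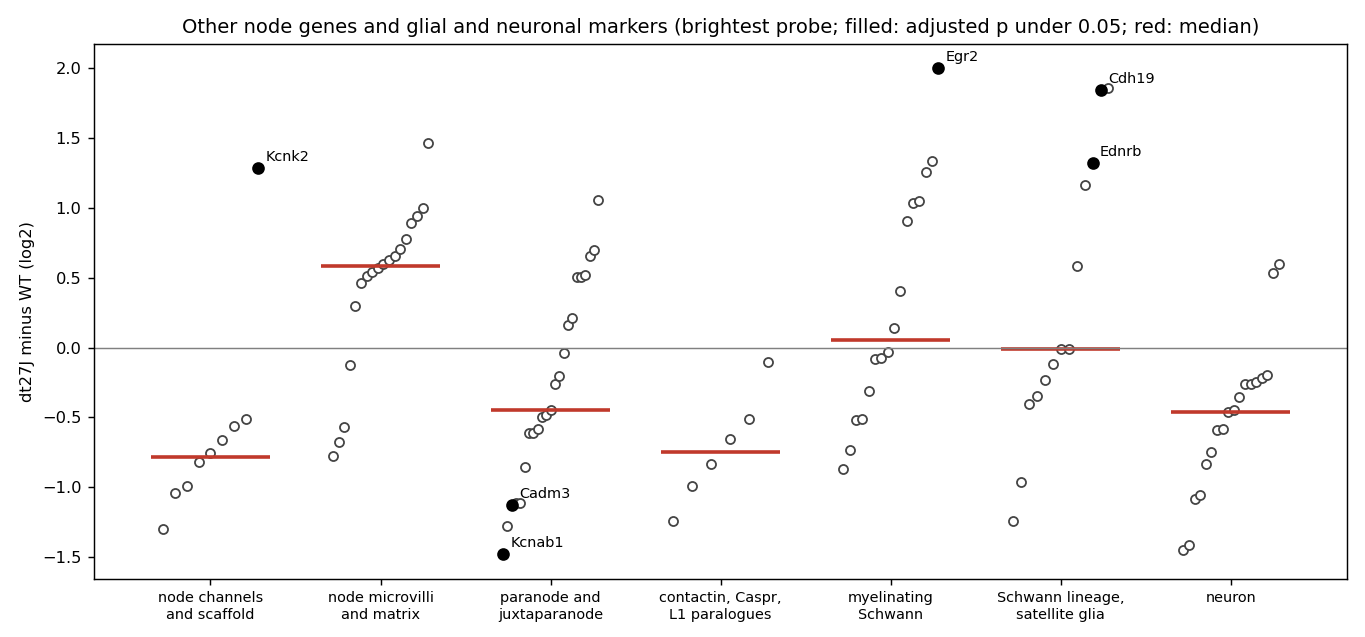
Genotype difference, dt27J minus WT on the log2 scale (vertical axis), of tested genes (brightest probe) in 4 lists of other nodal genes and 3 lists of glial and neuronal markers, with filled points for genes past the threshold and red lines for list medians over all tested genes, genes not reported here being left out of the points. The nodal channel list (median -0.79) and the nodal matrix list (0.58) lie on opposite sides of 0, and the myelinating Schwann cell list (0.05) lies about it.

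Patterns over the arrays were compared with those of 13100 other symbols by Pearson's r over the 6 arrays, as a description. The genes most like Gldn were Ddx11, a DNA helicase, Trim56, a ubiquitin ligase, Atl3, an atlastin of the endoplasmic reticulum, Casp6, which encodes caspase-6, and the integrin subunit Itgb3, with r between 0.995 and 0.999. Of these Trim56 (1.50), Casp6 (1.28) and Itgb3 (1.40) rose, with adjusted p values of 0.0442, 0.0473 and 0.0466, while Ddx11 (0.65) and Atl3 (0.24) did not pass. The genes most like Cntnap1 were Pym1, the synaptotagmin Syt11, Zfyve27, which encodes protrudin, the calcium channel gene Orai1 and Cnmd, which encodes chondromodulin, with r between 0.991 and 0.998, and only Cnmd (-1.05, adjusted p = 0.0479) passed among them. Over the same arrays Gldn had r = -0.88 with Cntnap1 and r = -0.87 with Cntn1, and Cntnap1 had r = 0.73 with Cntn1. From the highest r, Cntn1 took place 1973 of 13100 for Cntnap1. For Gldn, Cntnap1 took place 12159 and Cntn1 place 11993. The r of Cntnap1 was 0.74 with Cntn2, 0.40 with Nfasc, 0.39 with Nrcam and -0.58 with Cntnap2. That of Gldn was -0.77 with Nfasc, -0.75 with Nrcam, -0.70 with Cntn2 and 0.15 with Cntnap2. All these arrays are the ones the genotype test used.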

How the data were processed

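Total RNA of dorsal root ganglia from 3 dt27J and 3 WT mice was labelled with Cy3, per the labels' protocols, and each sample was hybridised to 1 array. Per the file headers, the deposited processed signal is an intensity made with Agilent Feature Extraction 10.5.1.1. A series table deposited by the authors has log2 values, 100.0% of whose probes have a median within 0.001 of 0 across arrays; its column medians lie between -0.0041 and 0.0053, and it has a slope of 0.93 to 0.98 on the scanner values. How that table was normalized is not stated in the labels or headers.

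From the processed signals the array's 75th percentile (369.5 to 580) was subtracted on the log2 scale, control and outlier spots were left out, and spots of a probe were averaged. Of 41174 probes 41086 had a value on all arrays and 26248 were tested. A RefSeq table of GRCm38.p6 named 24844 probes by transcript accession. The array's own annotation is of another build, per the file headers, so the table gave names and promoter windows, and no probe was placed on it.

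Genotype was tested with limma 3.58.1 in R 4.3.3, with genotype and label date as terms, and adjusted by Benjamini-Hochberg over all tested probes; the test was tried on simulated data. Fold changes are dt27J minus WT. A gene of a list is represented by its brightest tested probe. Named are every member probe, in each list the genes past the threshold or else the 3 with the smallest p, and the 5 genes most like Gldn and Cntnap1. Some genes that this rule would name are not reported here. The members and lists were chosen with earlier results of these data known. The samples are separate animals, per the series' design text. Alternatives were quantile normalization, normexp (on median spot signals, which replace the planned mean signals), the same with 52 high local backgrounds replaced, the authors' values, no filter, no date term, the replicate number as block, array weights and leaving out each array.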

Additional observations from a re-analysis of the deposited data

How the results depend on the processing

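The counts of probes past the threshold, 1 higher and 1 lower of 12, depended on the setting. The higher count was 0 after normexp, with no filter on dim probes, with no date block and with the replicate block, and ranged from 0 to 1 on leaving out an array. The lower count was 2 with the authors' values, after quantile normalization and after normexp with high local backgrounds replaced. In this last setting the 2 were Cntn1 and Nfasc, and the 1 after normexp was Cntn1, without Cntnap1. It was 0 with no filter, with no date block and with the replicate block, 10 with array weights, whose estimate did not converge fully, and ranged from 0 to 8 on leaving out an array. The counts of 8 came without either array of the second date, dt27J 3 or WT 3, and the counts of 0 without any of the other 4. Without dt27J 3 or WT 3 the second date holds 1 array, which the date term takes up. Both omissions therefore give the difference within the first date, 1.95 for Gldn in each, and are 1 comparison rather than 2. Each omission also leaves fewer arrays, and the cause of the other shifts was not tested. Of 168 values of single probes under the alternatives, 4 changed sign, all of the brightest Cntnap2 probe, at -0.0131 after normexp, -0.0863 with array weights and -0.13 without dt27J 3 or WT 3, and it ranged from -0.13 to 0.1974 on leaving out an array. Gldn kept a positive change under all 14 alternatives, from 0.70 to 1.96, with adjusted p from 0.000713 to 0.246, and Cntn1 and Cntnap1 a negative one, from -1.15 to -0.80 and from -1.08 to -0.40. The gap between Gldn and each other gene also kept its sign, but after normexp it ran from 0.71 to 1.94 with exact permutation p from 0.1 to 0.6. The variant of normexp with replaced backgrounds was added for this gap after the data were seen. Over all probes 344 were higher and 494 lower, against 614 and 561 in the authors' values, 537 and 440 after quantile normalization, 261 and 97 after normexp, 8 and 6 with no date block and 0 with no filter (8485 at an unadjusted p under 0.05). Replicate numbers are shared between the genotypes. Deviations of same-numbered arrays from their genotype means had correlations of 0.22, -0.15 and 0.06. The pair of the second date, which shares date and slide, gave only 0.06. With means of 3 arrays, these values cannot decide whether the numbers pair the animals. With the replicate block the adjusted p was 0.110 for Gldn and 0.117 for Cntnap1, and over all probes 2 were higher and 0 lower by limma.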
